A study of Mus musculus with 2 samples.

Results

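The helper lineage factors examined here are 8 transcription regulators that steer activated CD4+ T cells towards one effector or regulatory fate or another: Eomes, Tbx21, Gata3, Hlx, Nfil3, Runx1, Runx3 and Foxp3. They were taken by gene symbol from the array's platform annotation, using only probe sets that list a single symbol. All 8 were measured, by 13 probe sets, among 11807 genes in all. One further probe set lists Foxp3 together with a second gene and was left out.

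Naive CD4+ T cells of female C57BL/6J mice, taken from spleen and lymph nodes, were the starting material. Both groups received 60 h of activation by plate-bound antibodies against CD3 and CD28. The untreated group had no added IL-27 and the IL-27-treated group had 25 ng/ml of recombinant murine IL-27, an IL-12 family cytokine whose action on T cells runs through the receptor chains Il27ra and Il6st. The purpose of the series was to find transcription factors that IL-27 induces. Each group is 1 array, neither the age nor the number of animals is given in the sources used here, and no test is possible, so every difference below describes a pair of arrays.

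CD4+ helper T cells choose among fates under the direction of a few transcription factors. Tbx21 encodes T-bet, the defining factor of Th1 cells, which make interferon gamma, and its T-box relative Eomes supports interferon gamma and cytotoxic genes, above all in CD8+ T cells and NK cells. Hlx is a homeobox protein that works with T-bet, and Runx1 and Runx3 are DNA-binding partners of Cbfb, of which Runx3 joins T-bet at Th1 genes. Gata3 is the defining factor of Th2 cells, Foxp3 that of regulatory T cells, and Nfil3 is a basic leucine zipper factor that can repress or promote cytokine genes and is tied to the circadian clock.

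The 4 members that were furthest apart between the arrays are shown by the DNA just upstream of their annotated start sites. A link between these sequences and the direction of a difference was not tested. Each line gives the 250 bases before the start site in the RefSeq annotation of GRCm38.p6, 5′ to 3′ on the gene's strand. Capitals mark matches, on either strand, to CCAAT and to GGGCGG, the core of the site bound by Sp1 and related factors, and neighbouring GGGCGG matches can share bases.
Eomes: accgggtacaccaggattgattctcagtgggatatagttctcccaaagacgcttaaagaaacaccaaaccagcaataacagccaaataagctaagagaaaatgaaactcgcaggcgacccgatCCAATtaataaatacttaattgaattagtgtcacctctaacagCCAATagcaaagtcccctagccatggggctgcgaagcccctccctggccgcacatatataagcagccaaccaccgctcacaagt
Gata3: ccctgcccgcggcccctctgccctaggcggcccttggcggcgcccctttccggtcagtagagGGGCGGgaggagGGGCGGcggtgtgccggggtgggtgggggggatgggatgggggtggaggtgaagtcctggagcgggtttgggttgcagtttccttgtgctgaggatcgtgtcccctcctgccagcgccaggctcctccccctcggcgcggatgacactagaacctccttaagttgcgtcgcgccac
Nfil3: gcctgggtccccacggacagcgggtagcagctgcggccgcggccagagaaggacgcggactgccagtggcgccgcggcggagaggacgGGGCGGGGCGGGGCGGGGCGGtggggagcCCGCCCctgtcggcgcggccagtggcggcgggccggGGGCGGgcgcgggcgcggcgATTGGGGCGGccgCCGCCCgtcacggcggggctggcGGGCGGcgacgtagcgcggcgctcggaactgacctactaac
Hlx: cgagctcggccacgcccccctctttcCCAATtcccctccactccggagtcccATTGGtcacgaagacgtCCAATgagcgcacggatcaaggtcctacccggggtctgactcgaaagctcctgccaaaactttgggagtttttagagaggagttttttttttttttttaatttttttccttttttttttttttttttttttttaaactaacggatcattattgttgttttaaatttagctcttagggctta
The Eomes window is chr9:118477939-118478188 on the plus strand. The others lie on the minus strand, Gata3 at chr2:9878601-9878850, Nfil3 at chr13:52981040-52981289 and Hlx at chr1:184732494-184732743.

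The windows differed in base composition. Nfil3 had 81.6% G and C with 43 CG dinucleotides and 9 GGGCGG matches, whereas Eomes had 46.4% with 8 CG dinucleotides and Hlx 41.6% with 11. Gata3 had 70.0% with 19. The median over 32851 windows of the same length was 52.4% with 6. CCAAT was found 2 times in the Eomes window, 127 and 84 bases before the start site, 3 times in that of Hlx and once in that of Nfil3. Of all windows, 33.8% held CCAAT and 32.7% held GGGCGG.

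None of these 4 windows, nor that of Tbx21, held the letters of a STAT site (TTCNNNGAA, in 7.02% of all windows), a T-box site (AGGTGTGA, 1.12%), a Runx site (ACCACA, 14.0%), a GATA site (AGATAA, 9.99%), an AP-1 site (TGANTCA, 6.75%) or an Nfil3 site (TTANGTAA, 2.06%), searched on both strands. Among the remaining members, 1 of the 2 Runx3 windows held ACCACA 2 times, 134 and 126 bases before its start site. One of the 2 Foxp3 windows held TTCNNNGAA 139 bases before the start site and AGATAA 47 bases before it. Neither of the 2 Runx1 windows held any of these motifs. A match here is a match of letters in a short window and nothing about binding was measured.

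A difference of 2-fold or more was counted as a call. On the IL-27-labelled array, 2 of the 8 members were higher by that measure (Eomes and Gata3), 2 were lower (Nfil3 and Hlx), and 4 were within 2-fold (Runx1, Foxp3, Runx3 and Tbx21). Over all 11807 genes, 0.889% were called higher, 1.63% lower and thus 2.52% in either direction. The members were chosen with earlier results of these arrays known, so nothing is read from their larger share. Levels are intensities on a linear scale, and a difference is always the log2 level on the IL-27-labelled array minus that on the untreated-labelled array. A background floor, an intensity of 16.9, marks the level reached by genes that belong to other tissues. Where the dimmer of a pair of values lay under it, the fold is the brighter intensity divided by the floor and is written as "at least".

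Directions follow the labels. A list of genes reported to be induced by IL-27 in T cells, chosen with earlier results of these arrays known, had 9 measured members. Of these, 6 were called lower on the IL-27-labelled array and 0 higher, against 1.63% and 0.889% of all genes. The 6 became 5 with the mean or median over a gene's probe sets, or with values raised to 2 times the floor. Socs3, the feedback inhibitor of STAT3 signalling, stood at 1122 and 185.8, and Il21 at 384.3 and 26.7. Irf1, Socs1 and Cd274 differed by 0.34, 0.11 and 0.06. Among the 8 helper lineage factors, Eomes and Gata3 were higher on that array, Nfil3 and Hlx were lower, and 4 were within 2-fold. Whether the labels of the 2 arrays are exchanged was not tested. If they were, every direction given here would turn, with Eomes and Gata3 lower and Nfil3 and Hlx higher under IL-27.

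**Figure D1:**
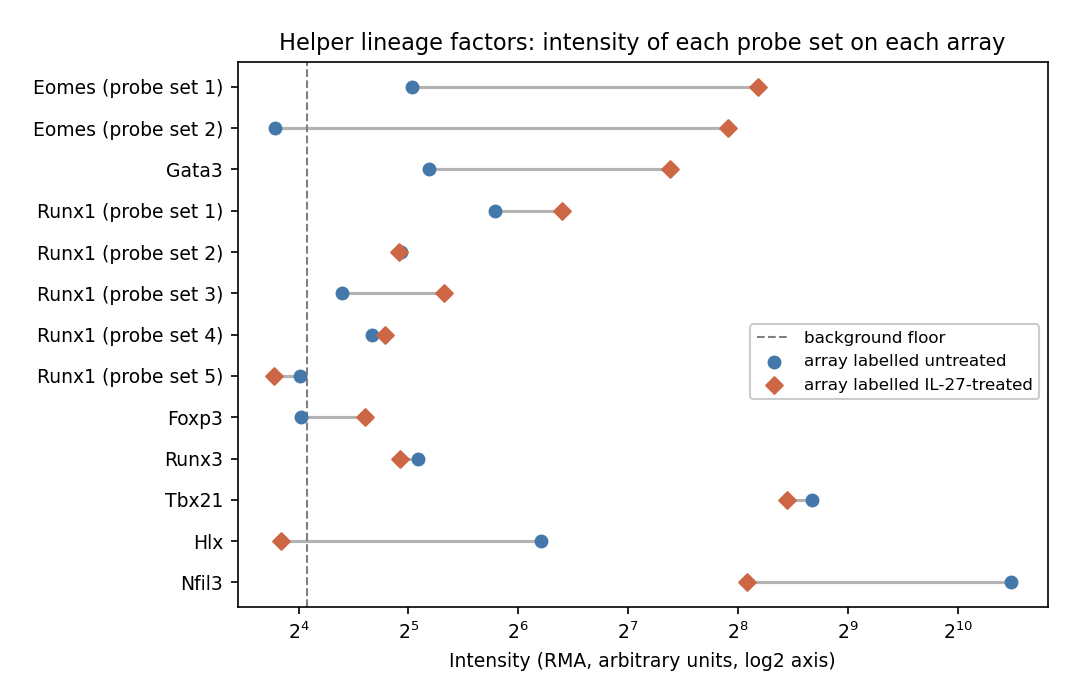
Intensity of each of the 13 probe sets of the 8 helper lineage factors (log2 axis, arbitrary units) on the untreated-labelled array (circles) and the IL-27-labelled array (diamonds), with the background floor of 16.9 as a dashed line. The brightest probe set of a gene is numbered 1, and there is 1 array per group, so no error bars are drawn. Both Eomes probe sets and Gata3 lie to the right on the IL-27-labelled array, Hlx and Nfil3 lie to the left.

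The T-box factors came apart. Eomes had intensities of 32.8 on the untreated-labelled array and 290.4 on the IL-27-labelled array by its brighter probe set, a difference of 3.15 or 8.85-fold. Its other probe set stood at 13.8, under the floor, and 240.0, and was thus at least 14.2-fold higher, so both read the gene as low on the first array and well above the floor on the second. Only 3 of the 7728 genes above the floor on at least 1 array had a larger positive difference than Eomes.

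Tbx21 had intensities of 408.0 and 349.0, a difference of -0.23. It was thus far above the floor on both arrays, and 47.1% of the genes above the floor were further from 0. The difference of Eomes exceeded that of Tbx21 by 3.37 on the log2 scale. The other 12 measured T-box genes gave no further call: Mga, a large repressor that carries a T-box, differed by -0.45 (intensities of 53.0 and 38.7), and 11, among them Tbr1, the nearest relative of Eomes, were under the floor on both arrays.

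The T-bet partner Hlx was detected on the untreated-labelled array alone. Its single probe set had intensities of 73.8 and 14.3, the second under the floor, which makes it at least 4.37-fold lower. With a floor of 33.8, 2 times as high, the difference would be -1.13. Its mean log2 level lay between 1 and 2 times the floor, where 3.25% of 1137 genes were at least 2-fold apart.

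Gata3 had intensities of 36.5 and 166.4, a difference of 2.19 or 4.56-fold, by its single probe set. It was above the floor on both arrays, and 16 of 7728 genes above the floor had a larger positive difference. Zfpm1, which encodes FOG-1, a cofactor that binds GATA factors and restrains Gata3, was on the same side without reaching 2-fold. Its intensities were 221.9 and 323.0, a difference of 0.54, with 0.25 from its other probe set. Gata1 stood at 19.7 and 22.4, close to the floor, and Gata2, Gata4, Gata6 and Zfpm2 were under it on both arrays, so of 7 genes of this family Gata3 alone was past 2-fold.

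Nfil3 was lower on the IL-27-labelled array but well detected on both. Its intensities were 1433 and 271.7, a difference of -2.40 or 5.28-fold, at 84.8 and 16.1 times the floor. Of 7728 genes above the floor, 30 had a more negative difference. Of the 3066 genes with a mean level more than 16 times the floor, 2.74% were at least 2-fold apart.

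The proteins nearest to Nfil3 in DNA recognition, the clock output factors Dbp and Tef, stood within 2-fold, at 53.3 and 60.6 for Dbp and 64.3 and 58.0 for Tef. Of 10 measured genes of the list of Dbp relatives and clock components, Nfil3 was the single one past 2-fold. The clock repressor gene Bhlhe40 differed by -0.55, with intensities of 2392 and 1636, and Per1 by -0.26. Per3 stood at 15.2, under the floor, and 25.4 by its brightest probe set, and its other probe sets were under the floor on both arrays.

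**Figure D2:**
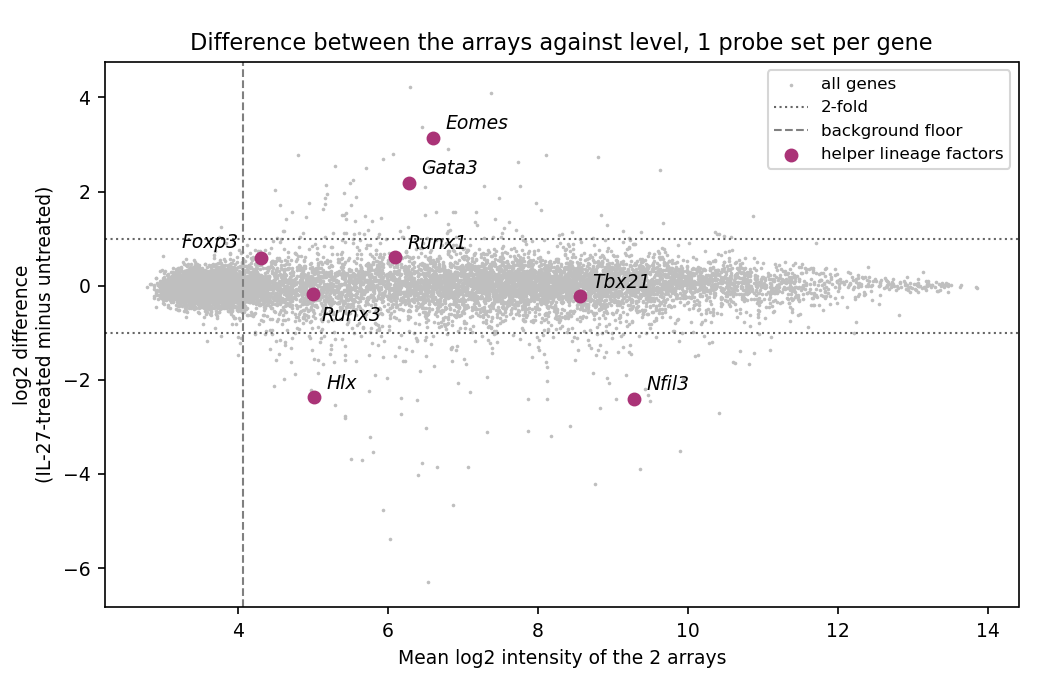
Difference between the arrays (log2, IL-27-treated minus untreated) against the mean log2 intensity of the 2 arrays for 11807 genes, each read by its brightest probe set, with the helper lineage factors in purple. Dotted lines mark 2-fold and the dashed line the background floor. Eomes at 3.15 and Gata3 at 2.19 lie above the cloud, Hlx at -2.36 and Nfil3 at -2.40 below it, and the other 4 members within the dotted lines.

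Runx1 was read by 5 probe sets that disagreed. The brightest had intensities of 55.4 and 84.1, a difference of 0.60, and the third brightest 21.0 and 40.0, a difference of 0.93. Both are annotated to the transcript NM_009821. The probe sets annotated to X97306 and D13802 gave -0.02 (30.6 and 30.2) and 0.12 (25.4 and 27.6), and the fifth, also annotated to X97306, was under the floor on both arrays at 16.1 and 13.7. None was 2-fold apart. The 4 probe sets above the floor on both arrays spanned 0.95. Of 210 genes with at least 4 such probe sets, 11, Runx1 included, spanned at least as much. The median span was 0.37.

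Runx3 was read by a single probe set at 34.0 and 30.3, a difference of -0.17, at 2.01 and 1.79 times the floor. Cbfb, the shared partner that Runx proteins need for firm DNA binding, had intensities of 1274 and 1261, nearly alike. Zbtb7b, which encodes ThPOK, the factor that keeps CD4+ T cells from the CD8+ fate and opposes Runx3, differed by -0.55, with intensities of 107.8 and 73.7, and by -0.85 through its other probe set. The corepressor gene Cbfa2t2 differed by 0.56. Of 10 measured genes of the Runx list, which also holds Cd4, Cd8a and Cd8b1, 0 were 2-fold apart.

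Foxp3 stood at 16.2, under the floor, and 24.3, at least 1.44-fold higher. With the floor set 2 times as high no difference would be left, since both values lie under 33.8. Among its forkhead relatives, Foxp1, which helps to keep T cells quiescent, had intensities of 818.4 and 1017 and a difference of 0.31, and its other 6 probe sets gave 0.31 to 0.56. Foxo3 differed by -0.56, with intensities of 495.4 and 335.3. None of the 6 measured genes of this family was 2-fold apart.

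In order of their differences the members ran from Eomes (3.15) and Gata3 (2.19) through Runx1 (0.60), Foxp3 (0.58), Runx3 (-0.17) and Tbx21 (-0.23) to Hlx (-2.36 as measured) and Nfil3 (-2.40). No replicate spread exists to set these apart. Over 2408 genes with several probe sets above the floor on both arrays, those of 1 gene spanned a median of 0.21. The 90th percentile was 0.53. Such probe sets share the same 2 arrays, so their span holds no variation between arrays or cultures. Runx1 and Foxp3, Runx3 and Tbx21, and, as measured, Hlx and Nfil3 differed from each other by less than that median. With dim values raised to the floor, Hlx came to -2.13 against -2.40 for Nfil3, further apart than that median.

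Genes of the Th1, Th2 and regulatory T cell lists lay on both sides. They are genes typical of these cells, and whether the members act on them here was not tested. The Th1 list had 23 measured genes, of which 1 was called higher, 3 lower and 19 neither. Their median difference was -0.05, against -0.01 over all genes, of which 0.889% were called higher and 1.63% lower. After loess between the arrays, 4 Th1 genes were called lower. The lists were chosen with earlier results of these arrays known, so nothing is read from the size of their counts. Fasl, the death ligand of effector T cells, had intensities of 104.3 and 450.3, 4.32-fold higher, and its other probe set gave 4.45-fold. Prf1, which encodes perforin, a target of Eomes in cytotoxic cells, had intensities of 164.9 and 17.8 by its brighter probe set, 9.25-fold lower, whereas its second probe set stood at 28.0 and 27.2, a difference of -0.04.

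Il12rb2, the receptor chain through which IL-12 sustains Th1 cells, had intensities of 387.6 and 174.2, a difference of -1.15, and the chemokine gene Ccl4 differed by -1.11. Ifng itself, the defining Th1 cytokine, stood at 73.5 and 123.9, a difference of 0.75 that did not reach 2-fold. Of the 19 Th1 genes above the floor on at least 1 array, 9 were on the higher side, as Eomes was, and 10 on the lower side.

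The Th2 list had 14 measured genes, 1 called higher, 2 lower and 11 neither, and a median difference of 0.04. Of all genes, 0.889% were called higher and 1.63% lower. With a pseudocount of 16, 1 Th2 gene was called lower, and with values raised to 2 times the floor, 0 were called in either direction. Ccr8, a chemokine receptor of Th2 and regulatory T cells, had intensities of 19.7 and 65.2, 3.31-fold higher. Il10 was at least 2.79-fold lower, from 47.2 to a value under the floor, and Il24 at least 2.31-fold lower. Il10 is also counted among the genes reported to be induced by IL-27. Il4ra, the receptor chain for IL-4, differed by -0.74. The Th2 cytokine genes Il4 and Il5 were under the floor on both arrays. Il13 was close to it, at 22.9 and 32.7, a difference of 0.52 on the same side as Gata3. The higher Gata3 reading thus stood beside little or no signal of these cytokine genes, and its action on them was not tested.

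Genes typical of Foxp3-expressing regulatory T cells numbered 13 measured, with 3 called higher, 0 lower and a median difference of -0.004. The shares over all genes were 0.889% higher and 1.63% lower. Nrp1, a surface receptor of thymus-derived regulatory T cells, had intensities of 25.2 and 82.4, 3.27-fold higher, and its other probe sets were at least 5.28-fold and 3.56-fold higher. Ebi3, a subunit of IL-35 and of IL-27 itself, stood at 84.5 and 249.9, 2.96-fold higher, and Izumo1r, a folate receptor relative, at 451.2 and 989.2, 2.19-fold higher. Entpd1, the ectoenzyme CD39, differed by -0.94 by its brighter probe set and by -0.06 by the other. Ikzf2, which encodes Helios, a partner of Foxp3 in regulatory T cells, was under the floor on both arrays.

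Other factors of T cell lineage choice numbered 23, each above the floor on at least 1 array. Of these, 0 were called higher and 4 lower, against 0.889% and 1.63% of all genes. This list too was chosen with earlier results known. Of its genes called lower, Prdm1 and Ahr are also counted among those reported to be induced by IL-27. The median difference was -0.28. With each array's median subtracted, 1 was called higher: Id3, an inhibitor of E proteins, at 0.96 before the subtraction and named after its values were seen. With the mean or the median over a gene's probe sets, 3 were called lower. Prdm1, which encodes the repressor Blimp-1, was at least 11.2-fold lower, from 189.8 to a value under the floor. Id2, an inhibitor of E proteins that favours effector cells, was 5.27-fold lower, at 1213 and 230.2. Rora, a Th17 factor, was 2.84-fold lower and Ahr, the aryl hydrocarbon receptor, 2.79-fold lower, while the second probe set of Ahr was under the floor on both arrays.

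**Figure D3:**
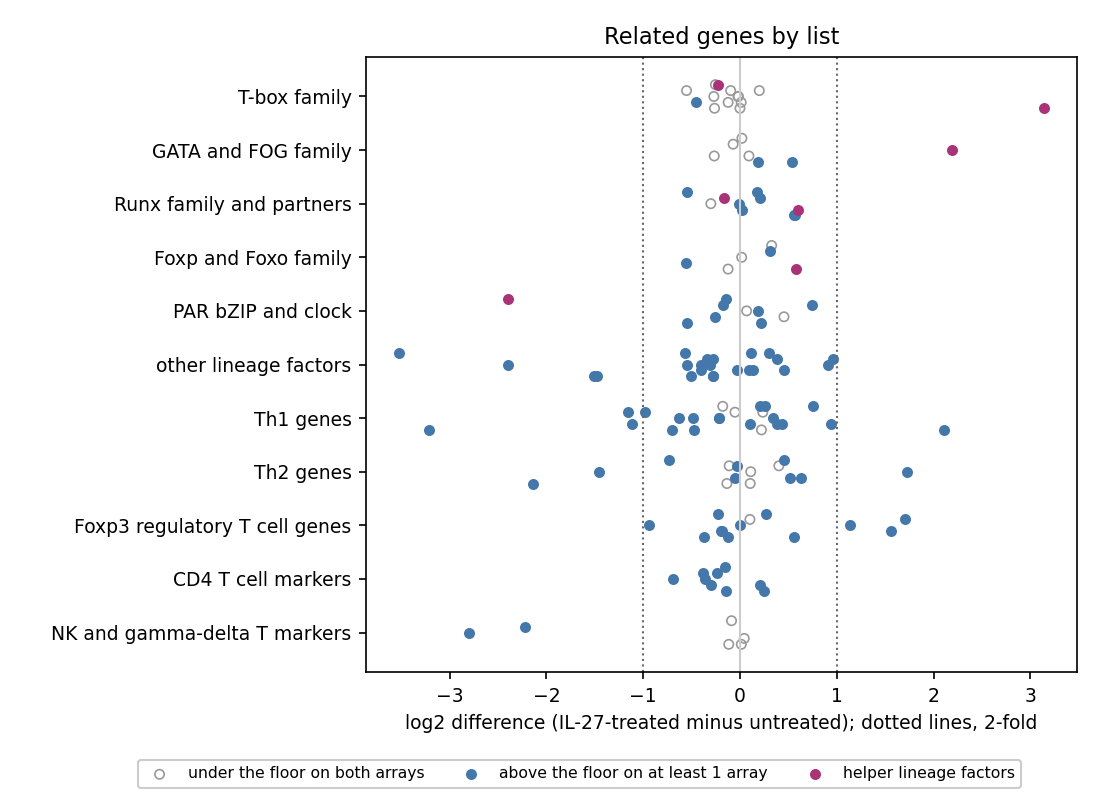
Differences (log2, IL-27-treated minus untreated) of the measured genes of 11 lists related to the helper lineage factors, 1 point per gene. Open points are genes under the background floor on both arrays, blue points those above it on at least 1 array and purple points the helper lineage factors themselves; dotted lines mark 2-fold. Eomes and Gata3 stand alone to the right of their families and Nfil3 alone to the left of its own, while the 9 measured CD4+ T cell markers lie within 2-fold.

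With 7253 genes above the floor on both arrays, the nearest in difference to Eomes were Tnfsf11, which encodes RANKL, at 3.36, the enkephalin precursor gene Penk at 2.91 and Phlda1 at 2.80. Nearest to Gata3 were Plaur, the urokinase receptor gene, at 2.19, the chemokine receptor gene Ccr6 at 2.14 and the interferon-inducible Ifi203, one of a cluster of near-identical genes that probe sets may not tell apart, at 2.24. Nearest to Nfil3 were Id2 at -2.40, Selenbp1 at -2.41 and Tiparp, a target gene of the aryl hydrocarbon receptor, at -2.41. With 1 array per group the likeness rests on a single difference per gene.

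The labelled cell type was checked by its markers. The 9 measured CD4+ T cell markers were above the floor on both arrays and within 2-fold, and Cd4 stood at 342.5 and 395.4. In bulk RNA, fewer cells of a type and less RNA per cell cannot be told apart. Eomes is also a gene of CD8+ T and NK cells: Cd8b1 stood at 119.3 and 176.5 and Cd8a at 17.2 and 19.5, close to the floor, differences of 0.57 and 0.18 on the same side as Eomes, and their summed intensity was 136.5 and 196.0. Of 6 measured NK and gamma-delta T cell markers, Klrd1 was at least 6.76-fold lower and Klrk1 at least 4.04-fold lower, while the other 4, among them Ncr1 and Klrb1c, were under the floor on both arrays. The summed intensity of that list was 233.2 on the untreated-labelled array and 80.1 on the other, a difference carried by Klrd1 and Klrk1. Of 5 B cell markers 1 and of 8 myeloid markers 4 were above the floor, with summed intensities of 67.0 and 75.6 for B cells and 168.8 and 140.3 for myeloid cells. The part of these cells in the differences of the members was not tested.

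**Figure D4:**
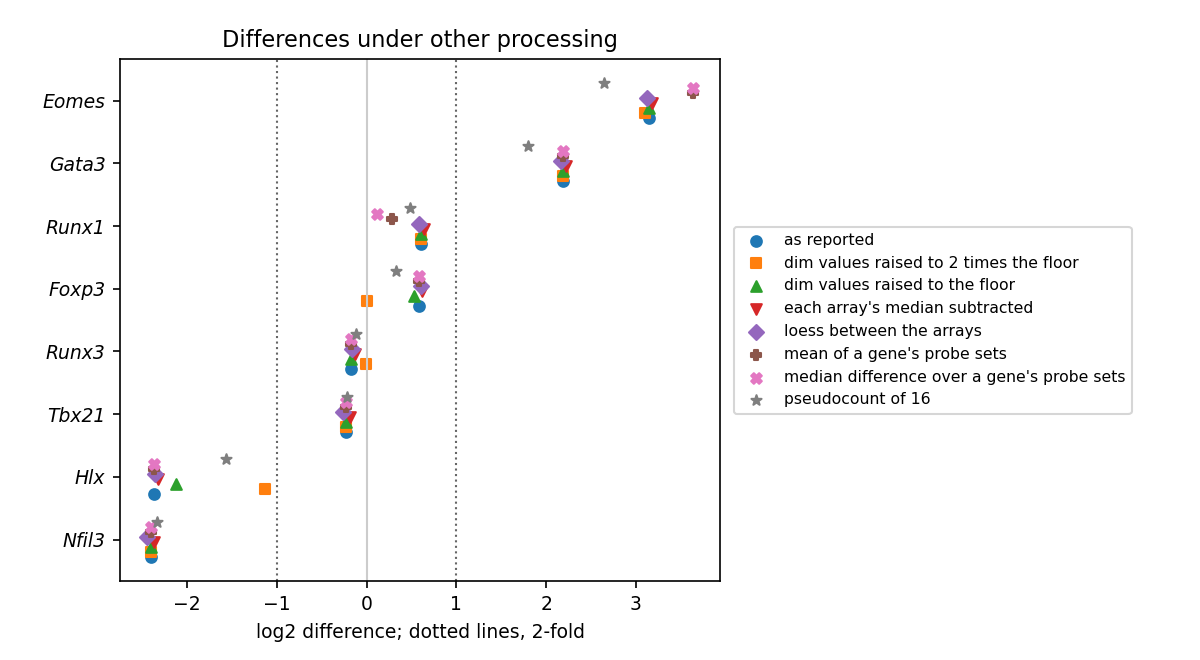
Difference of each helper lineage factor (log2, IL-27-treated minus untreated) as reported and under 7 other ways of processing the same intensities; dotted lines mark 2-fold. Eomes, Gata3, Hlx and Nfil3 stay beyond the dotted lines in each, Eomes between 2.65 and 3.63, and the other 4 members stay inside them.

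The plot of other processing shows that the calls of the 4 members past 2-fold were kept under each of the 7 alternatives. Gata3 ranged from 1.80 to 2.22, Nfil3 from -2.44 to -2.33 and Hlx from -2.36 to -1.13. Tbx21 ranged from -0.27 to -0.19. At a threshold of 1.5-fold, 3 members were called higher, with Runx1 added, and 2 lower, against 3.17% and 4.49% of all genes.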

How the data were processed

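RNA of 2 cultures of activated mouse CD4+ T cells (100 ng each) was amplified and biotin-labelled from its 3' end and hybridized to 1 array each, per the labels' protocols. The deposited values are intensities per probe set, made by the authors with RMA per the submitters' processing notes; version and settings were not given in the sources used here, and no detection calls were used. RMA makes the arrays' distributions alike (medians of 33.3 and 32.4) and compresses differences of dim probe sets, and with 1 array per group their number limits the precision.

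Of 22716 probe sets, 18003 list 1 gene symbol, 287 several and 4426 none, and 17977 of the 18003 matched a RefSeq gene (GRCm38.p6) by Entrez identifier, with 0 symbols changed. Each gene was read by the probe set whose log2 level, averaged over the arrays, was highest. Intensities were converted to log2 with no pseudocount, and no test was run. The floor was the 95th percentile of 43 measured genes of other tissues, of 50 listed, which 7728 genes (65.5%) passed on 1 array or both. A call is a difference of at least 2-fold. Named genes were the members, up to 4 genes per list with the largest absolute difference among those above the floor, and the 3 genes nearest in difference to Eomes, Gata3 and Nfil3; others were chosen after their values were seen. Motifs were searched in the 250 bases before each start site in a RefSeq promoter table. The members, the lists and the rules were chosen with earlier results of these data known. The choice of probe set and the 2-fold call were run on simulated arrays with changes planted in brighter genes only. That check did not cover changes in dim genes or the floor. Python 3.11.15, pandas 2.3.3, numpy 2.4.6, statsmodels 0.14.6 and matplotlib 3.10.9 were used.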

Additional observations from a re-analysis of the deposited data

How the results depend on the processing

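The counts of 2 members called higher and 2 called lower (2-fold) were kept with each array's median subtracted, loess between the arrays, a pseudocount of 16, dim values raised to the floor or to 2 times the floor (the last added after seeing the data), and the mean or median over a gene's probe sets. At a threshold of 1.5-fold, 3 were higher, with Runx1 added, and 2 lower. No member changed sign, except that Foxp3 came to 0 with values raised to 2 times the floor. Runx1 fell to 0.28 with the mean and 0.12 with the median over its probe sets, and the members' median difference of 0.21 became -0.03 with the latter. The share of genes at least 2-fold apart was 3.84% among those above the floor and 2.52% with no filter. For 48 of the genes named here, sign and call were all kept with the median subtracted or after loess. Id3, which is outside those 48, was called higher with the median subtracted. After loess, 4 Th1 genes were called lower, against 3 as reported. With values raised to 2 times the floor, 0 Th2 genes were past 2-fold in either direction. No paired analysis was possible because each group has 1 array. Signal over background limits Hlx, Foxp3, Runx3 and the dim array of Eomes.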
